A study of Mus musculus with 2 samples.

Results

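The 9 genes Slc1a2, Slc1a3, Glul, Aqp4, Gja1, Gjb6, Atp1b2, Slc4a4 and Kcnj10 encode proteins by which astrocytes take up transmitter, exchange ions and water and couple to each other. They were chosen by name, all 9 were listed among the 15474 genes of the filtered counts, and they were followed by cell identity and by condition. The dentate gyrus (DG) of C57BL/6J mice of 4 to 5 weeks was dissociated, and single cells were sorted into plates and sequenced by SORT-seq, in which each transcript is tagged at its 3′ end with a unique molecular identifier (UMI). Fresh cells were pooled from 3 mice and sorted with a dead cell stain, while MeOH-fixed cells were pooled from 4 mice, fixed in methanol, stored for 3 weeks at low temperature, rehydrated in SSC buffer and sorted without the stain. Each condition is 1 plate, so that condition, pool of mice, stain and plate cannot be told apart and no test between conditions was possible. Levels are the UMIs of a gene scaled to a total of 1000000 UMIs of the same cells (CPM), with exact Poisson intervals, and shares of cells with exact Clopper-Pearson intervals, both at 95%. The intervals cover counting error only and not the spread between mice or plates.

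Glutamate that leaves a synapse is taken up by astrocytes through the transporters GLT-1 (Slc1a2) and GLAST (Slc1a3) together with sodium, and glutamine synthetase (Glul) turns it into glutamine, which neurons reuse. The sodium gradient is kept by the sodium pump, of which Atp1b2 is a β subunit, while the channel Kir4.1 (Kcnj10) carries potassium and NBCe1 (Slc4a4) carries sodium and bicarbonate. Water passes through aquaporin-4 (Aqp4), and the connexins Cx43 (Gja1) and Cx30 (Gjb6) form the gap junctions that join astrocytes. Radial glia-like cells (RGLs), the neural stem cells of the DG, share many of these genes with astrocytes, and the deposited annotation names both as one identity.

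The fresh library held 18 astrocytes/RGLs among 64 filtered cells and the MeOH-fixed library 29 among 132. They gave 109572 and 80722 UMIs, with medians of 5830 and 2196 UMIs per cell. All 10 astrocyte/RGL markers looked at (S100b, Sox2, Sox9, Aldoc, Hopx, Id4, Gfap, Aldh1l1, Fgfr3 and Ntsr2) had counts in these cells in both libraries. Aldoc, a glycolytic enzyme and the most abundant of them, was at 7465 CPM in fresh and 6553 CPM in MeOH-fixed astrocytes/RGLs against 80.1 and 97.2 CPM in all other cells. S100b was at 383 and 310 CPM against 89.5 and 87.9 CPM. The authors named these cells from the same counts by S100b, Sox2, Sox9, Aldoc, Hopx and Id4, so these values describe the identity and do not check it. Of the marker lists of the other 7 identities, each was between 24.8 and 557 CPM in astrocytes/RGLs. The highest value was that of immature neuron markers in the fresh library, against 1654.5 CPM in fresh immature neurons. Mature neuron markers were at 283 CPM in fresh astrocytes/RGLs but at 81.7 CPM in the 2 fresh cells named mature neurons. In those 2 cells 1 of the 6 mature neuron markers was counted. Among endothelial markers, Prom1 was the one with counts there, while Esam, Cldn5, Flt1 and Pecam1 were at 0 in both libraries. Pdgfra, which defines OPCs, was also at 0 in both. The other 3 OPC markers, Olig1, Sox10 and Cspg4, had counts in both libraries. Together they had 18 UMIs (164 CPM) in fresh and 25 UMIs (310 CPM) in MeOH-fixed astrocytes/RGLs. Rn45s, a ribosomal RNA precursor, made up 6.65% of the UMIs of fresh and 8.45% of those of MeOH-fixed astrocytes/RGLs, and mitochondrially encoded genes made up 21.9% and 18.4%.

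On GRCm38, with GENCODE vM21 gene models, Slc1a2 (ENSMUSG00000005089) lies at chr2:102658659-102790784 on the plus strand and Slc1a3 (ENSMUSG00000005360) at chr15:8634124-8710764 on the minus strand. Glul (ENSMUSG00000026473) lies at chr1:153899944-153909723 on the plus strand and Kcnj10 (ENSMUSG00000044708) at chr1:172341210-172374085 on the plus strand. Gja1 (ENSMUSG00000050953) lies at chr10:56377330-56402513 on the plus strand and Gjb6 (ENSMUSG00000040055) at chr14:57123303-57133611 on the minus strand. Atp1b2 (ENSMUSG00000041329) lies at chr11:69599736-69605942 on the minus strand and Slc4a4 (ENSMUSG00000060961) at chr5:88886818-89239653 on the plus strand. Gja1, Gjb6, Atp1b2, Slc4a4 and Kcnj10 overlap no other gene. Slc1a2 and Aqp4 each have 1 overlapping gene on the opposite strand, Slc1a3 has 1 on its own strand, and Glul has Teddm2 on the opposite strand and Mir8114 on its own. Reads of such neighbours may be counted with these 4 genes where the counting did not separate them.

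The 250 bases before the transcription start are shown for 4 of the genes, since Gja1 and Gjb6 were found almost only in astrocytes/RGLs and Glul and Kcnj10 also in the oligodendrocyte lineage. They are given 5′ to 3′ on the strand of the gene, from RefSeq on GRCm38.p6, with capitals for the half-site of nuclear factor I, TTGGC or GCCAA on the other strand. Gja1 is from chr10:56377050-56377299, Gjb6 from chr14:57133612-57133861, Glul from chr1:153899679-153899928 and Kcnj10 from chr1:172340960-172341209.
Gja1: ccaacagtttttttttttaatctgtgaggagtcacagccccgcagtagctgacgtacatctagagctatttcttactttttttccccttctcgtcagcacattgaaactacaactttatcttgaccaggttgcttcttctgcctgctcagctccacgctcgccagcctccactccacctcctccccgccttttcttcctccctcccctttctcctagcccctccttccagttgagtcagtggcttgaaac
Gjb6: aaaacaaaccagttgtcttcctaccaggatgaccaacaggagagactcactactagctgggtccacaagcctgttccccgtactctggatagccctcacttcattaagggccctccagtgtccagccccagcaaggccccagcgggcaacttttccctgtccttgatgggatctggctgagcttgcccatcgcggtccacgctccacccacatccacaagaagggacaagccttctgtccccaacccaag
Glul: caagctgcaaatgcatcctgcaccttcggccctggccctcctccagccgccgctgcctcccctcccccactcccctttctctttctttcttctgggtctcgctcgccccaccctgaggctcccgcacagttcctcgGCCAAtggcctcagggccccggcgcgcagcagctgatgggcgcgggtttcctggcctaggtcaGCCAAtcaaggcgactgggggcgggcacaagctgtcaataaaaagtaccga
Kcnj10: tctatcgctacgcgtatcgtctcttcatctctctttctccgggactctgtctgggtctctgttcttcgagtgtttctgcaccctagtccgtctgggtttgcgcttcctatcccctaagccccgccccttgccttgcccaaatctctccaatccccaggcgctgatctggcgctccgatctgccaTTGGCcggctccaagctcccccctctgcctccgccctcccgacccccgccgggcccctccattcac
The half-site occurred 2 times before Glul, 1 time before Kcnj10 and not before Gja1 or Gjb6, while 41.5% of 32851 promoters of this length held it. Over the 8 promoters of 7 members it was found in 5, which include that of Slc1a2 and both of Slc4a4. Both half-sites of Glul are followed by a T and are thus also CCAAT boxes (CCAAT or ATTGG), which 33.9% of promoters held and which occurred 2 times before Kcnj10 as well. The GC box (GGGCGG or CCGCCC) occurred 1 time before Glul, 2 times before Kcnj10 and not before the connexins, against 32.7% of promoters. Neither the TATA box (TATAAA or TTTATA, 12.4% of promoters) nor the SOX core (ACAAT or ATTGT, 27.7%) was found in the 4 windows. These are matches of letters in 1 window per gene.

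In astrocytes/RGLs, the 9 genes together made up 2.81% of all UMIs in the fresh and 3.20% in the MeOH-fixed library. In other cells they made up 0.128% and 0.154%. The summed level was thus 22.0 times as high in astrocytes/RGLs as in other cells in the fresh library (20.1 to 24.2) and 20.9 times in the MeOH-fixed library (19.4 to 22.4). Cell identities were named from these same counts, so these factors are descriptions. The factor differed between genes. For Aqp4 it was 111 (36.8 to 549) in the fresh and 174 (77.8 to 483) in the MeOH-fixed library, and for Gja1 100.1 and 157. For Gjb6, with 1 UMI in other fresh cells, it was 201 (34.6 to 8109) and 83.5. It was lower for Glul, at 6.80 and 10.4, for Slc4a4, at 24.3 and 8.59, and for Kcnj10, at 4.98 and 2.14.

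**Figure D1:**
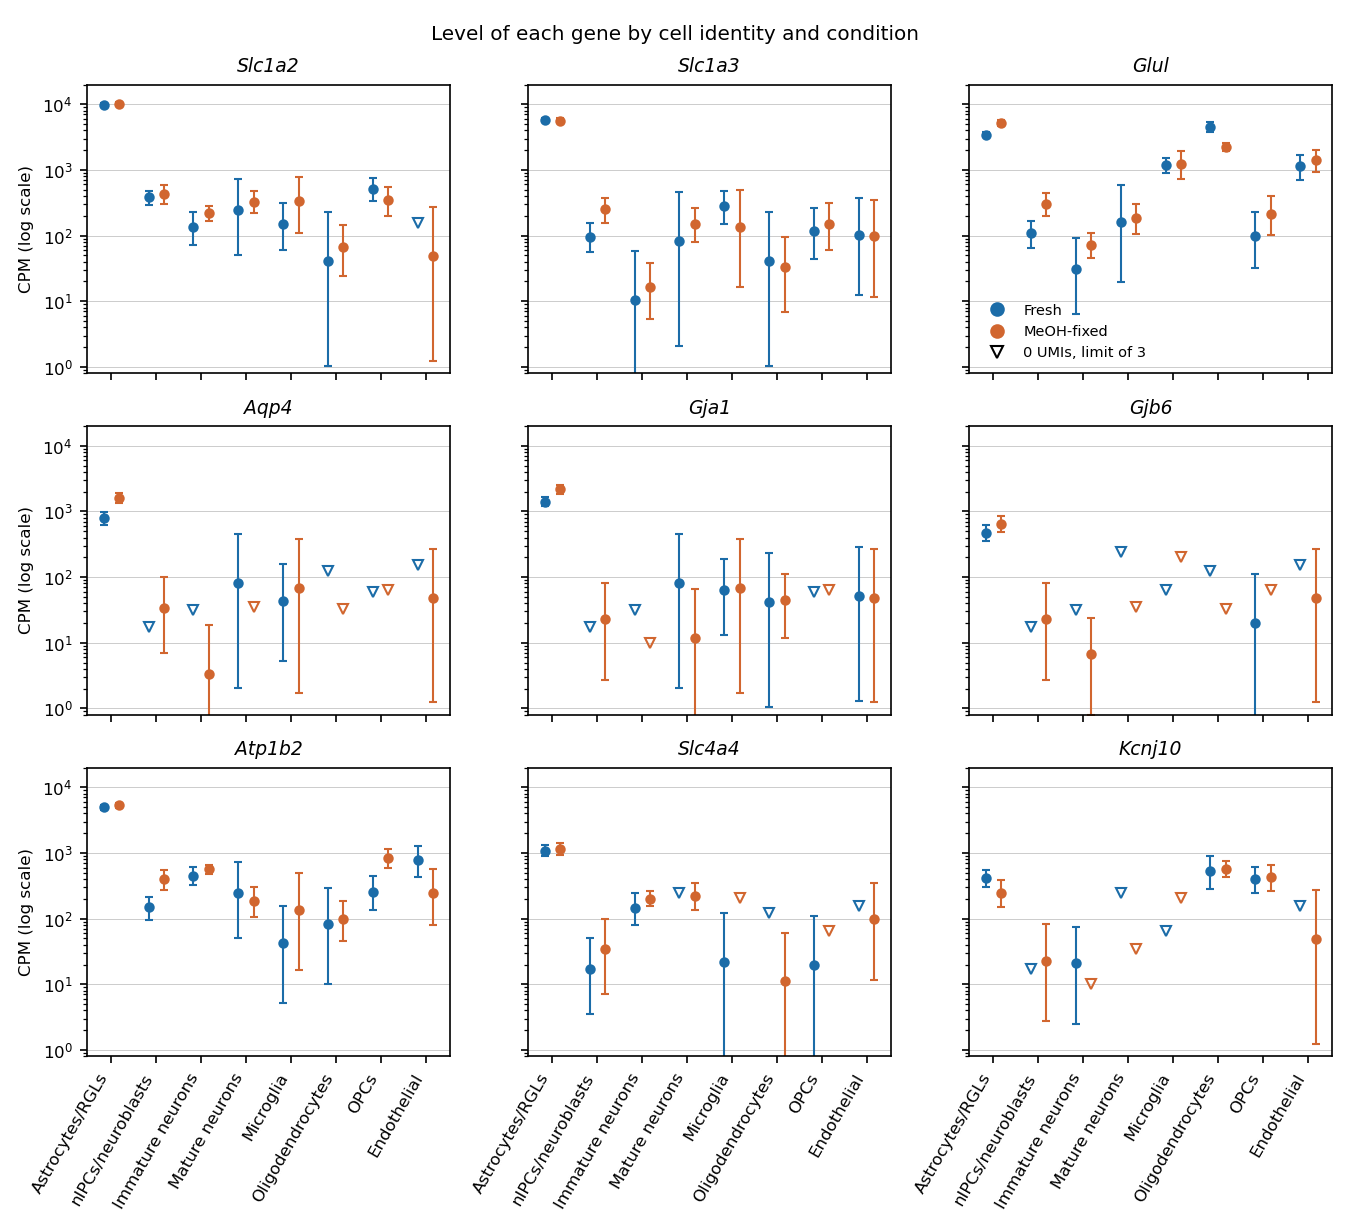
Level of each gene in CPM (log scale) in the 8 cell identities, for fresh and MeOH-fixed cells, with 95% Poisson intervals. Open triangles mark 0 UMIs and stand at the level that 3 UMIs would give. Aqp4, Gja1 and Gjb6 stand apart from every other identity in astrocytes/RGLs, whereas Glul and Kcnj10 are also high in oligodendrocytes.

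The glutamate transporter Slc1a2 was counted in all 18 fresh and all 29 MeOH-fixed astrocytes/RGLs. The lowest, median and highest fresh cell held 13, 52 and 212 of its UMIs, and for MeOH-fixed cells these were 2, 20 and 79. As a level this was 9774 CPM (9198 to 10378) in fresh and 10072 CPM (9391 to 10788) in MeOH-fixed astrocytes/RGLs, and the intervals overlapped. Outside them Slc1a2 was highest in OPCs in the fresh library, at 516 CPM (337 to 756), and in nIPCs/neuroblasts in the MeOH-fixed library, at 431 CPM (305 to 592). The fresh order went on with nIPCs/neuroblasts at 381 CPM, mature neurons at 245 CPM, microglia at 151 CPM, immature neurons at 135 CPM and oligodendrocytes at 41.1 CPM, and endothelial cells had 0 UMIs, which allows up to 155 CPM. The MeOH-fixed order was OPCs at 343 CPM, microglia at 340 CPM, mature neurons at 327 CPM, immature neurons at 219 CPM, oligodendrocytes at 66.1 CPM and endothelial cells at 48.6 CPM. Neighbours in both orders had overlapping intervals, except for the step down from astrocytes/RGLs and, in MeOH-fixed cells, the step from immature neurons (169 to 278 CPM) to oligodendrocytes (24.3 to 144 CPM).

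Slc1a3, the second glutamate transporter of astrocytes, was also counted in all 18 and all 29 astrocytes/RGLs. Here the lowest, median and highest fresh cell held 1, 32 and 100 UMIs, against 2, 13 and 46 for MeOH-fixed cells. The level was 5722 CPM (5283 to 6188) and 5612 CPM (5107 to 6153), again with overlapping intervals. In fresh cells of other identities Slc1a3 was at 280 CPM (149 to 480) in microglia, with 13 UMIs in 7 of 10 cells, at 119 CPM in OPCs, 103 CPM in endothelial cells, 96.7 CPM in nIPCs/neuroblasts, 81.7 CPM in mature neurons, 41.1 CPM in oligodendrocytes and 10.4 CPM in immature neurons. In MeOH-fixed cells it was at 250 CPM (157 to 378) in nIPCs/neuroblasts, 152 CPM in mature neurons, 150.1 CPM in OPCs, 136 CPM in microglia, 97.2 CPM in endothelial cells, 33.1 CPM in oligodendrocytes and 16.6 CPM (5.38 to 38.6) in immature neurons. Immature neurons were thus lowest in both libraries, with 1 UMI in 5 fresh and 5 UMIs in 25 MeOH-fixed cells. The level in MeOH-fixed nIPCs/neuroblasts came from 22 UMIs in 5 of 21 cells, of which 1 cell held 16. Outside astrocytes/RGLs the intervals of neighbours in these orders overlapped.

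Glul was high in several identities besides astrocytes/RGLs. In astrocytes/RGLs it was counted in every cell, with 4, 15 and 54 UMIs (lowest, median and highest) in fresh and 1, 12 and 36 in MeOH-fixed cells, at 3459 CPM (3119 to 3825) and 5203 CPM (4717 to 5725). The 2 fresh oligodendrocytes had 25 and 85 UMIs and a level of 4525 CPM (3719 to 5454), which overlapped with that of fresh astrocytes/RGLs. The 13 MeOH-fixed oligodendrocytes had 1, 12 and 60 UMIs and a level of 2238 CPM (1941 to 2568), below that of MeOH-fixed astrocytes/RGLs. Every oligodendrocyte of both libraries carried the gene. Microglia were at 1186 CPM (894 to 1544) and 1224 CPM (725 to 1934) and endothelial cells at 1134 CPM (711 to 1717) and 1409 CPM (944 to 2024), with overlapping intervals in both libraries. In MeOH-fixed cells the interval of endothelial cells also reached that of oligodendrocytes. The 22 UMIs of fresh endothelial cells lay in 3 of 6 cells, the highest of which held 11 and 9. Of the 29 UMIs in 8 MeOH-fixed endothelial cells, 1 cell held 14. Neurons, their precursors and OPCs were lower, with nIPCs/neuroblasts at 108 and 307 CPM, mature neurons at 163 and 187 CPM, OPCs at 99.2 and 214 CPM and immature neurons at 31.2 and 72.9 CPM. In the MeOH-fixed library the interval of immature neurons (45.7 to 110 CPM) did not reach that of nIPCs/neuroblasts (202 to 446 CPM).

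The water channel Aqp4 had 86 UMIs in 14 of 18 fresh astrocytes/RGLs and 130 UMIs in 22 of 29 MeOH-fixed ones. Fresh cells held 0, 2.5 and 17 UMIs (lowest, median and highest) and MeOH-fixed cells 0, 3 and 28. This made a level of 785 CPM (628 to 969) for fresh and of 1610 CPM (1346 to 1912) for MeOH-fixed astrocytes/RGLs. All other cells together held 3 UMIs in 46 fresh cells, 1 in mature neurons and 2 in microglia, and 6 UMIs in 103 MeOH-fixed cells. Oligodendrocytes and OPCs had 0 Aqp4 UMIs in both libraries, which allows up to 33.1 CPM in MeOH-fixed oligodendrocytes. Among the 25 MeOH-fixed immature neurons, at a median depth of 11563 UMIs, 1 UMI was found.

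The gap junction gene Gja1 had 155 UMIs in 17 of 18 fresh astrocytes/RGLs and 176 UMIs in 27 of 29 MeOH-fixed ones. Cells held 0, 4 and 23 UMIs in the fresh and 0, 5 and 20 in the MeOH-fixed library. The level was 1415 CPM (1201 to 1656) and 2180 CPM (1870 to 2527). Other cells held 6 UMIs in the fresh library, 3 of them in microglia, and 9 in the MeOH-fixed library, 4 of them in oligodendrocytes. Immature neurons and OPCs had none in either library, which allows up to 9.94 CPM in MeOH-fixed immature neurons.

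Gjb6, the second astrocyte connexin, had 52 UMIs in each library, in 11 of 18 fresh and in 19 of 29 MeOH-fixed astrocytes/RGLs. Cells held 0, 1.5 and 11 UMIs in the fresh and 0, 1 and 6 in the MeOH-fixed library. The level was 475 CPM (354 to 622) and 644 CPM (481 to 845), with overlapping intervals. Other cells held 1 UMI in the fresh library, in an OPC, and 5 in the MeOH-fixed library. Mature neurons, microglia and oligodendrocytes had 0 Gjb6 UMIs in both libraries. Aqp4, Gja1 and Gjb6 are therefore summed below as the 3 genes with the smallest shares outside astrocytes/RGLs, a choice made after their values were seen.

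Atp1b2, the pump subunit, was counted in all 18 fresh and in 28 of 29 MeOH-fixed astrocytes/RGLs. Cells held 1, 24 and 100 UMIs in the fresh and 0, 13 and 42 in the MeOH-fixed library, and the level was 5001 CPM (4591 to 5438) and 5290 CPM (4800 to 5816). In the neuronal lineage it was at 148 CPM (96.6 to 217) in fresh and 397 CPM (277 to 553) in MeOH-fixed nIPCs/neuroblasts, at 447 CPM (324 to 603) and 560 CPM (479 to 651) in immature neurons and at 245 and 187 CPM in mature neurons. The 5 fresh immature neurons held 0, 1, 2, 17 and 23 UMIs, and the 25 MeOH-fixed ones 0, 6 and 21 (lowest, median and highest), so that 23 of these 25 cells carried the gene. In glia and vessels it was at 258 CPM (137 to 441) and 836 CPM (595 to 1143) in OPCs, at 773 CPM (433 to 1275) and 243 CPM (78.9 to 567) in endothelial cells, at 43.1 and 136 CPM in microglia and at 82.3 and 99.2 CPM in oligodendrocytes. OPCs were thus the highest other identity in the MeOH-fixed library, with UMIs in 9 of 10 cells, and endothelial cells in the fresh library, with UMIs in 3 of 6 cells.

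The bicarbonate cotransporter Slc4a4 had 119 UMIs in 13 of 18 fresh and 92 UMIs in 27 of 29 MeOH-fixed astrocytes/RGLs. Cells held 0, 4 and 33 UMIs in the fresh and 0, 2 and 12 in the MeOH-fixed library, at 1086 CPM (900 to 1300) and 1140 CPM (919 to 1398). Neurons were its second source. Fresh immature neurons were at 146 CPM (79.6 to 244) with 0, 1, 1, 6 and 6 UMIs in the 5 cells, and MeOH-fixed ones at 202 CPM (155 to 260) with UMIs in 19 of 25 cells. MeOH-fixed mature neurons were at 222 CPM (133 to 346) with UMIs in 8 of 19 cells, while the 2 fresh mature neurons had 0 UMIs, which allows up to 245 CPM. All other identities held 3 UMIs or fewer in each library, nIPCs/neuroblasts included, at 17.1 and 34.1 CPM.

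Kcnj10 was not highest in astrocytes/RGLs in either library. It had 45 UMIs in 12 of 18 fresh and 20 UMIs in 13 of 29 MeOH-fixed astrocytes/RGLs, with 0, 2 and 10 UMIs per fresh and 0, 0 and 4 per MeOH-fixed cell. The level there was 411 CPM (300 to 550) and 248 CPM (151 to 383). The 2 fresh oligodendrocytes held 2 and 11 UMIs, at 535 CPM (285 to 914), and the 13 MeOH-fixed ones 0, 5 and 9 (lowest, median and highest), at 573 CPM (428 to 752). In the MeOH-fixed library the interval of oligodendrocytes lay above that of astrocytes/RGLs, whereas these intervals overlapped in fresh cells, where the oligodendrocytes were 2. OPCs were at 397 CPM (242 to 613), with 0, 1, 4, 5 and 10 UMIs in the 5 fresh cells, and at 429 CPM (262 to 662) in MeOH-fixed cells, with UMIs in 8 of 10. In the other identities Kcnj10 was nearly without counts, with 0 UMIs in both libraries in mature neurons and microglia, 0 and 2 UMIs in nIPCs/neuroblasts, 2 and 0 in immature neurons, and 0 and 1 in endothelial cells.

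**Figure D2:**
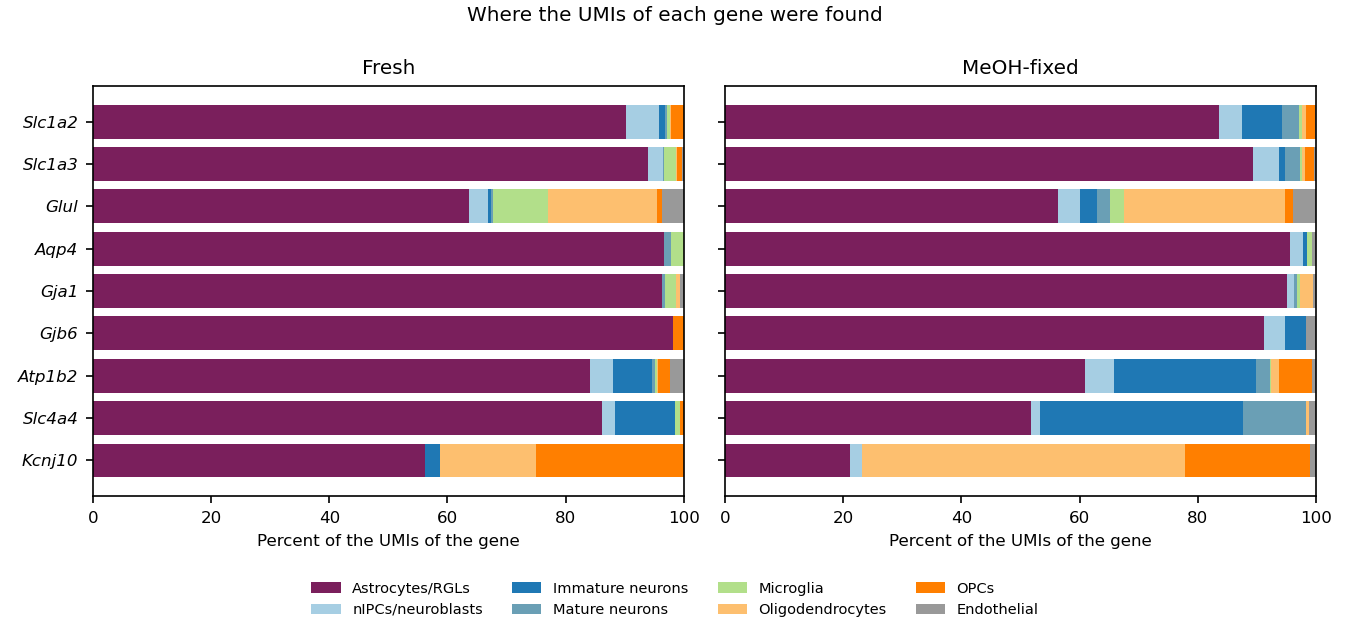
Share of the UMIs of each gene, in percent, found in each cell identity of the fresh (left) and the MeOH-fixed library (right). The shares depend on how many cells of each identity were sorted and on their UMIs. Of the Kcnj10 UMIs 43.8% lay outside astrocytes/RGLs in the fresh and 78.9% in the MeOH-fixed library, against 3.37% and 4.41% for Aqp4.

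Of all UMIs of the 9 genes, 15.0% (13.8 to 16.2) lay outside astrocytes/RGLs in the fresh and 27.8% (26.4 to 29.3) in the MeOH-fixed library. This share depends on the number of cells of each identity and on their UMIs, and both differed between libraries. The fresh library had 2 oligodendrocytes and 5 immature neurons and the MeOH-fixed library 13 and 25, and the part of each in the share was not tested. As a level, the 9 genes were at 1277 and 1535 CPM in other cells. They were at 751 CPM (628.5 to 891) and 1521 CPM (1274.5 to 1802) in nIPCs/neuroblasts. One MeOH-fixed cell held 28 of the 134 UMIs there. Oligodendrocytes were at 5265 CPM (4393 to 6260.5) and 3065 CPM (2715 to 3447). The 2 fresh ones held 28 and 100 UMIs, of which 110 were of Glul. In each remaining identity the intervals of the conditions overlapped. At least 1 UMI of the 9 genes was found in 44 of 46 fresh (95.7%, 85.2 to 99.5) and 99 of 103 MeOH-fixed other cells (96.1%, 90.4 to 98.9). Their median depths were 6627.5 and 4033 UMIs per cell. At 800 UMIs per cell the shares were 50% (34.9 to 65.1) and 69.9% (60.1 to 78.55). Without Glul and Atp1b2 they were 39.1% (25.1 to 54.6) of fresh and 34.0% (24.9 to 44.0) of MeOH-fixed other cells at this depth. The intervals of the conditions overlapped with and without these genes, so no order is read from them. For comparison, with the same thinning, the marker lists of the 8 identities were found in 0 to 33.9% of fresh and in 3.23% to 34.6% of MeOH-fixed cells of other identities. Markers of astrocytes/RGLs were found in 21.7% and 21.4%, of immature neurons in 33.9% and 34.6%, of microglia in 1.85% and 7.20% and of oligodendrocytes in 12.9% and 29.4%. The lists hold 4 to 10 genes and differ in level in their own cells, so the shares are not like for like. In fresh cells this level ran from 81.7 CPM (mature neuron markers) to 64912 CPM (oligodendrocyte markers), against 28128 CPM for the 9 genes.

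Aqp4, Gja1 and Gjb6 together had 10 UMIs in other fresh cells (23.6 CPM, against 2674 CPM in astrocytes/RGLs) and 20 UMIs in other MeOH-fixed cells (30.8 CPM, against 4435 CPM). These low values are what the 3 genes were picked for. In nIPCs/neuroblasts they had 0 UMIs in 16 fresh and 7 UMIs in 21 MeOH-fixed cells (79.5 CPM, 32 to 164). In each remaining identity besides astrocytes/RGLs the intervals of the conditions overlapped. After thinning to 800 UMIs the 3 genes were found in 4.35% and 2.91% of other cells.

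The genes with most UMIs differed between the other identities. In the 13 MeOH-fixed oligodendrocytes Glul had 203 UMIs and Kcnj10 52, and Slc1a2 had 6 and Slc1a3 3. In the 25 MeOH-fixed immature neurons Atp1b2 had 169 UMIs, Slc1a2 66 and Slc4a4 61, and Slc1a3 had 5 and Kcnj10 0. In the 10 MeOH-fixed OPCs Atp1b2 had 39 UMIs, Kcnj10 20 and Slc1a2 16, and Slc4a4 had 0. In MeOH-fixed astrocytes/RGLs, by comparison, the order began with Slc1a2 at 813 UMIs, Slc1a3 at 453, Atp1b2 at 427 and Glul at 420, and Kcnj10 had 20. The part of RNA from other cells and of doublets in these counts was not tested, and doublets were not called.

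Between conditions, the summed level of the 9 genes in astrocytes/RGLs was 28128 CPM (27143 to 29139) for fresh and 31999 CPM (30776 to 33257) for MeOH-fixed cells, a log2 ratio of 0.19 (0.11 to 0.26). By this measure the MeOH-fixed library was higher, whereas it was lower as UMIs per cell (log2 ratio -0.94) and per spike-in count (-0.73), since MeOH-fixed cells held fewer UMIs of all genes. Over the 1289 genes with at least 20 UMIs in astrocytes/RGLs, the median log2 ratio was 0.08 in CPM, -1.05 per cell and -0.83 per spike-in count, and the median over the 9 genes was 0.08 in CPM. The intervals of CPM did not overlap between conditions for 3 of the 9 genes, all higher in MeOH-fixed cells in CPM. Among all 1289 genes this was so for 5.28% in that direction and for 3.41% in the other, in which the set had none. The 9 genes had more UMIs than most (median of 331 against 33), and among the 259 genes with at least as many UMIs as Kcnj10, intervals lay apart for 12.4% upward and 6.18% downward. A level 2-fold or more higher in MeOH-fixed cells was seen for Aqp4 alone, against 10.2% of all genes, and 2-fold or more lower for none, against 8.92%. With 1 in 9, the count past 2-fold was near the background. Aqp4 was itself just past 2-fold, at a log2 ratio of 1.04, and below it without mitochondrially encoded genes (0.98) or with each cell weighted equally (0.95).

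**Figure D3:**
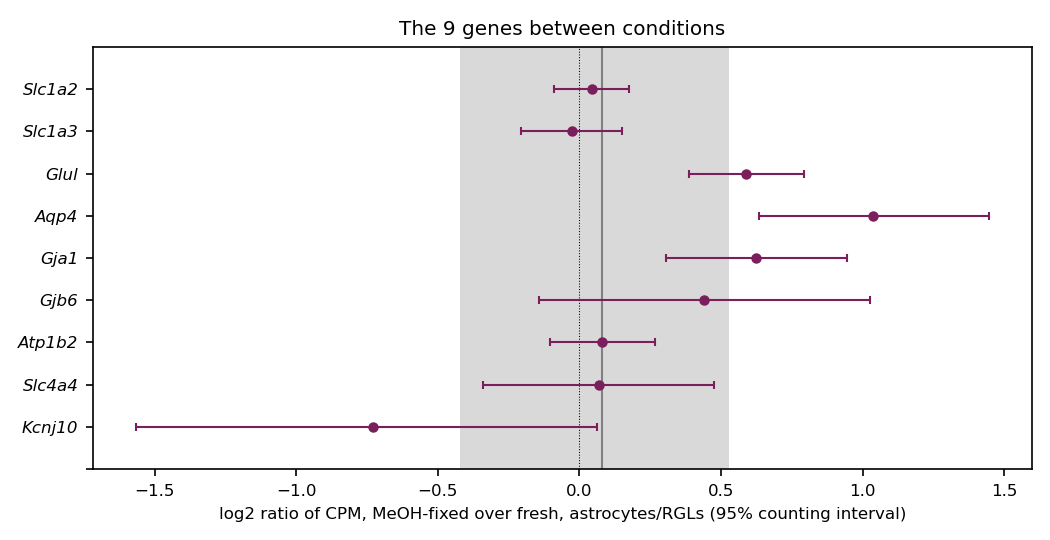
Log2 ratio of the level in CPM, MeOH-fixed over fresh, in astrocytes/RGLs for the 9 genes. Bars are 95% counting intervals, the grey band spans the middle 50% of 1289 genes (-0.42 to 0.53) and the grey line is their median. Glul, Aqp4 and Gja1 lie above the band, and Kcnj10 below it with a bar that reaches beyond 0.

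The 3 genes with separate intervals were Aqp4, Gja1 and Glul. Aqp4 had a log2 ratio of 1.04 (0.63 to 1.45) in CPM, Gja1 of 0.62 (0.30 to 0.95) and Glul of 0.59 (0.39 to 0.79). Counted per cell all 3 were lower in MeOH-fixed cells, at -0.09, -0.50 and -0.54, and per spike-in count Gja1 and Glul were lower, at -0.29 and -0.32, and Aqp4 was higher, at 0.13. Relative to the median of all genes, which does not depend on the scaling, they were at 0.96, 0.55 and 0.51. Gjb6 was at 0.44 (-0.14 to 1.02), an interval that includes 0. Without the 8 fresh and 2 MeOH-fixed cells that held 5 or more UMIs of the markers of another identity, Glul was at 0.15, Aqp4 at 1.08, Gja1 at 0.73, Gjb6 at 1.10 and Slc1a2 at -0.27, and the part of such transcripts in these values was not tested. The remaining genes had log2 ratios in CPM of 0.04 for Slc1a2, -0.03 for Slc1a3, 0.08 for Atp1b2 and 0.07 for Slc4a4, with the widest interval, from -0.34 to 0.47, for Slc4a4. Kcnj10 was at -0.73 (-1.57 to 0.06), from 45 and 20 UMIs, so that a difference was not detectable at this depth.

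As parts of the set, Aqp4 made up 2.79% of the UMIs of the 9 genes in fresh and 5.03% in MeOH-fixed astrocytes/RGLs, Gja1 5.03% and 6.81%, and Glul 12.3% and 16.3%. Slc1a2 made up 34.8% and 31.5%, Slc1a3 20.3% and 17.5%, and Atp1b2 17.8% and 16.5%. UMIs are counted once per transcript at its end, so that these are shares of tags and were not scaled by length.

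**Figure D4:**
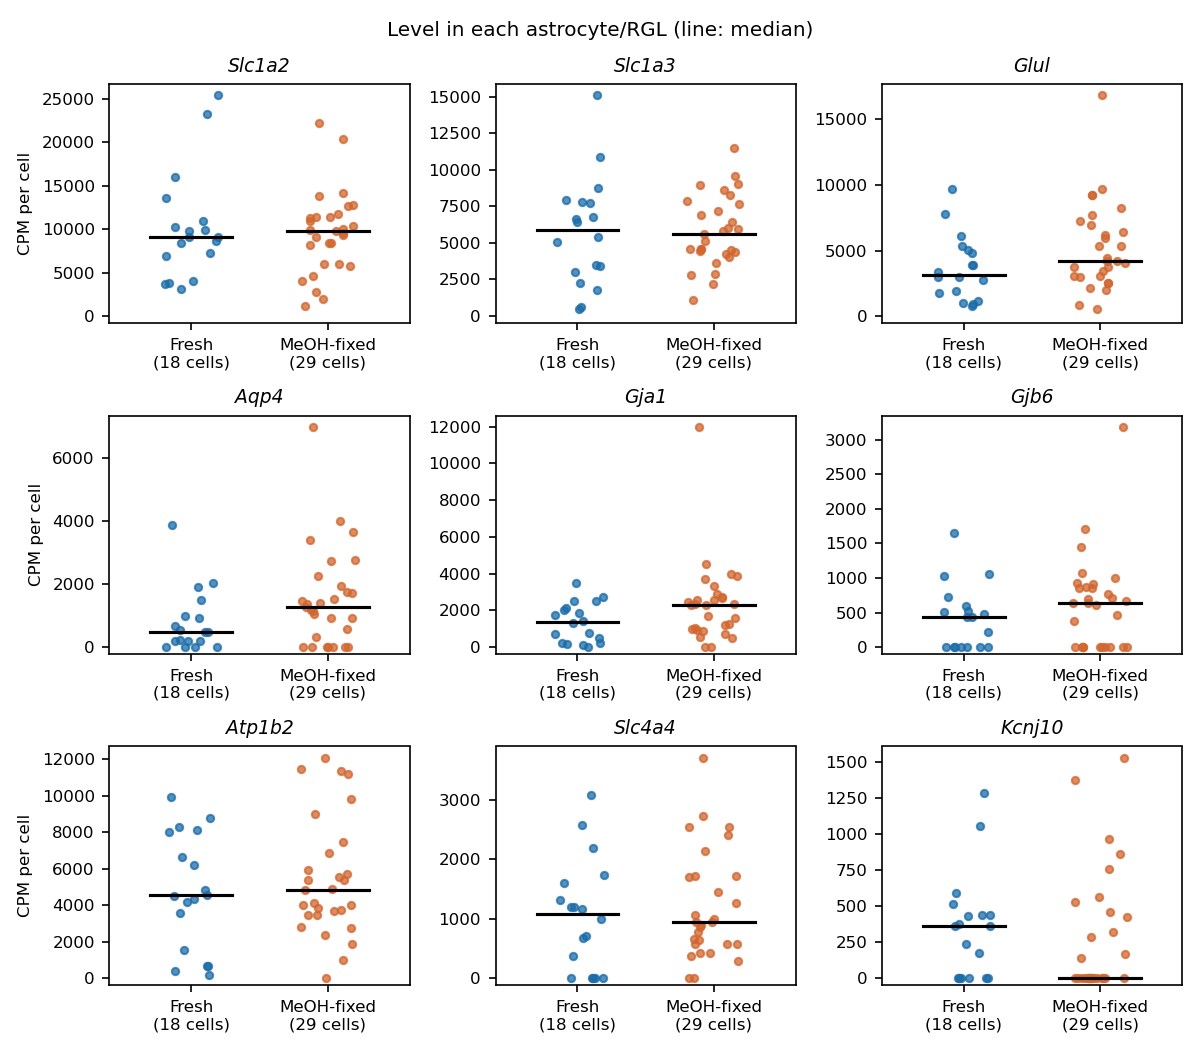
Level of each gene in CPM per cell in the 18 fresh and 29 MeOH-fixed astrocytes/RGLs, with the median as a line. For every gene the points of the 2 conditions overlap, and Aqp4 and Gja1 have higher medians in MeOH-fixed cells (471 against 1271 CPM and 1346 against 2301 CPM).

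Cells of one condition differed among themselves by more than counting error. For the sum of the 9 genes, the lowest, median and highest fresh cells were at 12563, 29407 and 57784 CPM and MeOH-fixed cells at 2793, 33433 and 47205 CPM. After thinning to 800 UMIs the variance of this sum was 5.96 times its mean in fresh and 2.36 times in MeOH-fixed cells, where counting alone would give a ratio near 1. Slc1a3 was at 3.54 and 1.44, Slc1a2 at 2.86 and 3.33, Atp1b2 at 2.54 and 1.92 and Glul at 2.32 and 1.96, whereas Kcnj10 was at 1.06 and 0.929. Where this ratio lies above 1, the counting intervals above leave out part of the spread between cells and are too narrow for the level of a condition. As a mean over cells, the sum was at 28304 CPM (standard deviation 12561) in fresh and 32080 CPM (9086) in MeOH-fixed cells.

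Of the 9 genes, a median of 8 were counted per cell in both libraries, with 4 to 9 in fresh and 3 to 9 in MeOH-fixed cells. All 9 were seen in 7 fresh and 7 MeOH-fixed cells. At an equal depth of 800 UMIs the median was 5.5 for fresh against 7 for MeOH-fixed cells, and at 1500 UMIs, which leaves out 4 MeOH-fixed cells, it was 7 in both. With 800 UMIs Aqp4 was seen in 38.9% of fresh and 69.0% of MeOH-fixed astrocytes/RGLs and Gja1 in 50% and 79.3%. Without thinning these shares were 77.8% and 75.9% for Aqp4 and 94.4% and 93.1% for Gja1. As counted, the shares of the 2 libraries were thus within 2 percentage points.

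The fresh cells fell into a lower and an upper range. The 6 lowest had 12563 to 17219 CPM of the set and the next one had 27117 CPM. Of these 6, 4 were at 2478, 3469, 3604 and 6492 CPM of an RGL-leaning list of 7 genes, among them Hopx, Lpar1, Nes, Vim, Thrsp and Sox4, and held 3, 1, 4 and 1 UMIs of Aqp4, Gja1 and Gjb6 together. The remaining low cells were at 1956 and 0 CPM of the RGL-leaning list and held 0 and 18 UMIs of these 3 genes. The cell at 2478 CPM was also the highest fresh cell in an astrocyte-leaning list, at 9685 CPM. The fresh cell second in the RGL-leaning list, at 5530 CPM, was in the upper range, at 32787 CPM of the set. In the other 3 of the 4 cells, Slc1a2 and Slc1a3 stayed well counted, with 39 and 49, 25 and 45, and 54 and 60 UMIs, and Kcnj10 had 5, 7 and 10, while no other fresh cell held more than 5. The same 3 cells held 15, 1 and 3 UMIs of Atp1b2 and 0 of Slc4a4 and Gjb6. In the MeOH-fixed library the lowest cell stood alone at 2793 CPM, with 5 UMIs of the set, 4 of the astrocyte/RGL markers and 4 of the oligodendrocyte markers, and the others were between 16682 and 47205 CPM.

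**Figure D5:**
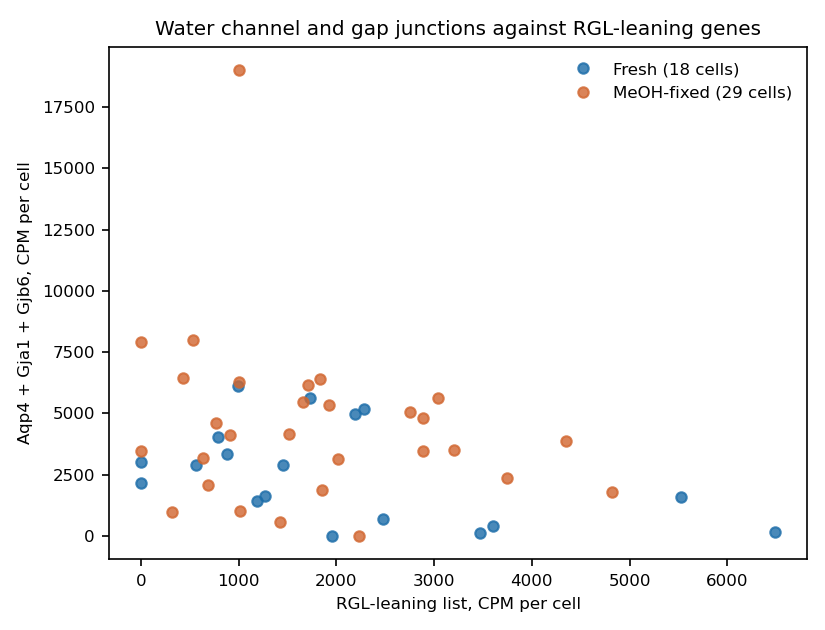
Summed level of Aqp4, Gja1 and Gjb6 against that of the RGL-leaning list, both in CPM per cell, for 18 fresh and 29 MeOH-fixed astrocytes/RGLs. The 4 fresh cells highest in the RGL-leaning list (3469 to 6492 CPM) lie at or below 1580 CPM of the 3 genes, while the 5 highest MeOH-fixed cells (3039 to 4816 CPM) lie between 1806 and 5610 CPM.

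Across cells, the level of the 3 summed genes and that of the RGL-leaning list had a Spearman's rho of -0.46 over 18 fresh and of -0.21 over 29 MeOH-fixed cells. Both are shares of the same UMIs in the same cells, and the values are descriptions. The RGL-leaning list was at 2108 CPM (1845 to 2398) in fresh and 1821 CPM (1539 to 2140) in MeOH-fixed astrocytes/RGLs, with overlapping intervals and 6 and 4 of its 7 genes counted, Nes at 0 in both. Cells with fewer UMIs of an astrocyte-leaning list (S100b, Aldh1l1, Gfap, Fam107a and Agt) than of the RGL-leaning list numbered 4 of 18 and 7 of 29. Without them, an alternative chosen after seeing the data, the CPM log2 ratios were 0.87 for Aqp4, 0.47 for Gja1 and 0.31 for Glul, and that of Kcnj10 was 0.14. How well these lists, such as Gfap in the astrocyte-leaning one, part astrocytes from RGLs was not tested.

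Genes of the same pathways gave a mixed picture between conditions. Of 44 companion genes 43 were listed, 20 had at least 20 UMIs in astrocytes/RGLs, and their median log2 ratio in CPM was -0.03. Their intervals lay apart for 4 genes, of which 1, Car2, was higher and 3, among them Slc7a10 and Kcnk2, were lower in MeOH-fixed cells in CPM, beside 5.28% higher and 3.41% lower among all 1289 genes. Of 15 genes for glutamate, glutamine and GABA, 8 had enough UMIs, and 7 of these were highest in astrocytes/RGLs in both libraries. Slc7a10, a carrier of small neutral amino acids, was at 301 CPM (207 to 423) and 86.7 CPM (34.9 to 179), while the mitochondrial enzyme Glud1 was at 1059 and 1016 CPM, with overlapping intervals.

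Of 10 other connexins and pannexins, Gjd2 was not analysed here and none of the rest reached 20 UMIs in astrocytes/RGLs. The connexins named next were chosen after their values were seen. Gjb2, the other connexin known from astrocytes, had 1 UMI in the fresh library and 0 in the MeOH-fixed one. Gjc3, an oligodendrocyte connexin, was counted elsewhere, at 2302 CPM in fresh OPCs and 1058 CPM in MeOH-fixed oligodendrocytes. Among 7 genes for potassium, bicarbonate and chloride, Kcnj16, a potassium channel that can pair with Kcnj10, was at 82.1 and 149 CPM in astrocytes/RGLs, where it was highest in both libraries. Carbonic anhydrase 2 (Car2) was at 584 CPM (450 to 746) and 1053 CPM (841 to 1302) there but at 4402 and 3583 CPM in oligodendrocytes. Kcnk2, a background potassium channel, was at 201 CPM (126 to 304) and 37.2 CPM (7.66 to 109). Of 7 genes that anchor or sit beside Aqp4 at endfeet, 5 had enough UMIs, with overlapping intervals for all 5. They include Mlc1, at 867 and 619 CPM, and Dag1, at 420 and 421 CPM. For Dtna, at 557 and 347 CPM, the interval of the log2 ratio (-0.68, from -1.38 to -0.015) left out 0 although the CPM intervals overlapped.

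By the pattern over 16 combinations of identity and condition, the genes most like the sum of the set among 2514 genes with at least 100 UMIs were Cxcl14 (Pearson's r = 0.854 on log2 of CPM with a pseudocount of 10), Mt1 (0.847), Htra1 (0.845), Acsbg1 (0.820), Ntsr2 (0.819), Fgfr3 (0.806), Apoe (0.788), Pla2g7 (0.784), Hepacam (0.779) and Daam2 (0.768). In both libraries each was higher in astrocytes/RGLs than in any other identity, such as Htra1, a serine protease, at 1360 and 2131 CPM against at most 206 CPM elsewhere. Of the members against the sum of the other 8, Gja1 was at 0.87, Gjb6 at 0.82, Slc1a3 at 0.77 and Aqp4 at 0.74. Kcnj10 (0.55), Atp1b2 (0.51), Slc4a4 (0.46), Slc1a2 (0.46) and Glul (0.44) were lower. The 16 points share libraries and differ in depth, and the 2 points of astrocytes/RGLs carry most of the range.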

How the data were processed

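Single cells of the mouse dentate gyrus were profiled by SORT-seq in 1 fresh and 1 MeOH-fixed plate of 384 barcodes. Per the labels and methods, the authors mapped reads with STAR to GRCm38, discarded reads mapping to several places, counted UMIs and corrected them for the 4096 possible UMIs, so that the deposited values are expected counts. The submitters' processing notes name R 4.2.0 and Seurat 4.1.0. The authors kept cells of 800 to 35000 transcripts with over 500 genes, over 500 spike-in counts and a transcript to gene ratio over 1.2. Cell identities were used as deposited and come from clustering the same counts. The correction was inverted, which gave whole UMIs (largest distance 3.64e-12). With 1 library per group no count model or test was run, so the values were described by CPM, shares and 95% exact intervals, which cover counting error only. The median depth was 6318 UMIs per fresh and 3452 per MeOH-fixed cell. Cells were thinned to 800 or 1500 UMIs where detection was compared, with a fixed seed, and doublets were not called. Genes with at least 20 UMIs in astrocytes/RGLs over both libraries entered comparisons of conditions. All 9 members were named, as were examples of the companion genes with at least 20 UMIs and the 10 genes of most like pattern, and other genes were named after their values were seen. Some genes of these lists are not reported here by name. The members and lists were chosen with earlier results of these data known. Gene positions are from GENCODE vM21 and promoters from RefSeq on GRCm38.p6, in which 7 members matched with 8 promoters. Scripts ran in Python 3.11.15 with numpy 2.4.6, pandas 2.3.3 and scipy 1.17.1, and the calculations were tested on simulated data. Alternatives numbered 36, and 6 were added after seeing the data.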

Additional observations from a re-analysis of the deposited data

Results flagged for a closer look

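Glul in oligodendrocytes went opposite to Glul in astrocytes/RGLs between conditions. As a log2 ratio of CPM, MeOH-fixed against fresh, it was -1.02 (-1.36 to -0.67) in oligodendrocytes, from 2 fresh and 13 MeOH-fixed cells, and 0.59 in astrocytes/RGLs. The difference between these ratios was not tested, with 1 library per condition.

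Barcodes that did not pass the filter on cells, and which enter no comparison above, also held UMIs of the 9 genes. The level was 3731 CPM in 320 fresh and 6682 CPM in 252 MeOH-fixed barcodes, above the 21.4 and 35.9 CPM that 3 UMIs would give. These were 523 and 559 UMIs, or 12.6% and 13.5% of all UMIs of the genes on the plate, and 14 and 13 barcodes held 10 or more. What these barcodes contained was not tested.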

How the results depend on the processing

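No paired analysis was possible because each condition is 1 library. Of 166 values under alternatives, 97 stayed within the counting interval (for counts, within 1.5 times), 62 moved further and 7 changed direction, and of the 90 for single genes 62, 23 and 5 did so. A change of direction was counted only where the interval of the CPM ratio leaves out 0. Of 102 log2 ratios between conditions, 25 had the other sign, 18 of them where that interval holds 0. As mean count per cell, the CPM log2 ratio of the sum (0.19) became -0.94, that of Glul -0.54, of Aqp4 -0.092 and of Gja1 -0.50, and per spike-in count the sum became -0.73, Glul -0.32 and Gja1 -0.29. Both scalings keep the fewer UMIs of MeOH-fixed cells. The sum was 0.27 without the cell of most UMIs of the set in each library, 0.10 with only cells of at least as many astrocyte-leaning as RGL-leaning UMIs (chosen after seeing the data) and 0.081 as the median of the 9 genes. Per cell, intervals lay apart for 0 genes of the set upward and 7 downward, and without cells of 5 or more UMIs of another identity for 1 downward. The share of all genes with intervals apart is not given for these settings, so these counts are not read as results about the set. Per cell the median log2 ratio of all genes was itself -1.05. Of all genes, 132 were 2-fold or more higher and 115 lower. Per cell these were 9 and 682, with at least 5 UMIs 1073 and 1276, with at least 50 UMIs 23 and 12, and at a fold of 1.5 294 and 230, and without cells of 5 or more UMIs of another identity 43 were lower. The cause was not tested, except that a lower minimum tests more genes.

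The median number of genes of the set per fresh cell was 5.5 at 800 UMIs. The percent of other cells with a UMI of the set became, for fresh and MeOH-fixed cells, 50 and 69.9 at 800 UMIs, 78.6 and 84.7 at 1500 UMIs, 82.6 and 78.6 without Glul and Atp1b2, and 45.6 and 62.8 over all barcodes, and 90.3 in MeOH-fixed cells with at least 2 UMIs. The percent of UMIs outside astrocytes/RGLs became 3.63 and 9.43 without other cells of 10 or more such UMIs, 9.34 and 18.5 without Glul and Atp1b2, and 25.7 and 37.6 over all barcodes. The log2 ratio of astrocytes/RGLs over other cells (4.46 and 4.38) became 4.63 and 4.54 without mitochondrially encoded genes, 3.86 and 3.21 per cell, 4.09 and 4.11 with equal weight per cell, and 5.23 and 5.14 without Glul and Atp1b2. It stayed above 0 under each of these.

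Depth limits what can be said of Kcnj10 and Gjb6 in astrocytes/RGLs, and of identities with 2 fresh cells. Intervals do not cover the spread between cells, mice or plates.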

Other observations

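A pair of MeOH-fixed astrocytes/RGLs stood apart and were chosen after their values were seen. The cell of 1000 UMIs held 12 Gja1 and 7 Aqp4 UMIs, or 19000 CPM of Aqp4, Gja1 and Gjb6, and 4 Slc1a2 UMIs. The cell of 1790 UMIs held 2 Slc1a2, 2 Slc1a3 and 1 Glul UMIs and none of the other 6 genes.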
